A study of Mus musculus with 9 samples.

Results

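The replication-dependent histone genes encode the core histones H2A, H2B, H3 and H4 and the linker histone H1 that package new DNA. In the deposited gene annotation 69 of 55421 genes bear such a name (Hist1h to Hist4h, leaving out a name that marks a pseudogene): 6 for H1, 20 for H2A, 18 for H2B, 12 for H3 and 13 for H4. Hist1h2aj and Hist1h2al, which the reference annotation calls pseudogenes, fall under this rule and were kept. Their transcripts were counted in 9 RNA sequencing libraries of CD8+ T cells from spleens of Pmel Ly5.1 mice, whose T cells carry a transgenic receptor for a melanoma antigen. The MitoPositive group (n = 3) and the MitoNegative group (n = 3) were T cells kept for 36 h on DM5 cells, which are bone marrow mesenchymal stromal cells of BL6 mice, immortalised and carrying DsRed in their mitochondria, and then sorted as DsRed-positive or DsRed-negative. The monoculture group (n = 3) was T cells cultured without the stromal line. Groups carry replicate letters B, C and D, and every title gives 0 h, which the labels do not explain. The labels do not say that the letters were separate mice or cultures, so the spread behind each p-value is that among these libraries and may be technical.

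Histone mRNA of this kind is made mainly in S phase, has no introns, and ends in a conserved stem-loop in place of a poly(A) tail. Slbp, the stem-loop binding protein, holds that end, and the U7 particle with its proteins Lsm10 and Lsm11 places the cut. Part of the family also has a poly(A) signal further downstream, and polyadenylated histone mRNA is known from differentiated cells that have stopped dividing. Linker histone H1 binds the nucleosome where DNA enters and leaves, and its subtypes come from separate genes.

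The 3′ ends of 5 members are printed because the reads divided by how the transcript ends. The first set is the stem-loop read from the longest reference transcript of each gene (GENCODE M21, GRCm38), with the 16 bases of the hairpin in capitals and 7 bases on each side. Hist1h1c lies at chr13:23738808-23740367 (plus strand), Hist1h4i at chr13:22040636-22041362 (minus strand), Hist3h2ba at chr11:58948920-58949533 (plus strand) and Hist1h2ao at chr13:21810465-21810944 (plus strand).
Hist1h1c: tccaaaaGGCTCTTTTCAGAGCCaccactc
Hist1h4i: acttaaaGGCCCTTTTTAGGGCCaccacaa
Hist3h2ba: acccaaaGGCTCTTTTCAGAGCCaccttcc
Hist1h2ao: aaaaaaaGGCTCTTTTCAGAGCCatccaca

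The transcript of Hist1h1c ran on for 840 bases past its stem-loop, that of Hist1h4i for 330 and that of Hist3h2ba for 169, while that of Hist1h2ao stopped after 31. The second set is the end of the transcripts that close on a poly(A) signal, AATAAA or ATTAAA in the last 50 bases, printed from 2 bases before the signal to the last base, with the signal in capitals. Hist2h2be, at chr3:96221119-96223738 (plus strand), is in this set, and no stem-loop was found in its longest transcript.
Hist1h1c: ctAATAAAaagcgtttagttttcattca
Hist1h4i: acATTAAAagtattctatgctaa
Hist2h2be: ttAATAAAgttaccgattagtttc
Hist3h2ba: ttAATAAAtttggttcaattttggccaca

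Histone reads were a small part of each library. The 69 genes held 21537 reads in all, between 1733 and 3095 per library, or 0.00298% to 0.00437% of library totals that ranged from 53546152 to 74722832. Of the 69 genes, 18 had 100 reads or more over the 9 libraries, 45 had 1 to 99, and 6 had 0 (Hist1h2aa, Hist1h2ba, Hist1h2bq, Hist1h2br, Hist2h2aa1 and Hist2h3c1). A count of 0 over the 9 libraries allows up to 3 reads, a level of 0.00511 CPM (counts scaled to a common library total), and this limit covers counting error only. For 4 of the 6 genes at 0, under 50% of the sequence was their own. Reads shared with copies may be missing there, and the limit may not hold. The filter on low counts let 24 members into the test.

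Reads were concentrated on the members whose annotated transcript extends beyond the histone end. A transcript was called extended when it ran at least 100 bases past the stem-loop, closed on a poly(A) signal or had more than 1 exon, a grouping made after the counts had been seen. The 29 members with an extended transcript held 19971 of the 21537 reads, 92.7%. The 20 members whose transcript ended at the stem-loop held 996 reads, 11 annotated by their coding part only held 423, and 9 others held 147. Among the 17 members that close on a poly(A) signal were 5 of the 6 with most reads, and the 17 held 16195 reads. Extended transcripts are mostly longer and can gather more reads, and these counts are not scaled to length. Of the 40 other members only 9 had at least 50% of their 50-base words to themselves, so reads shared with copies may be missing. The part of length and of shared sequence in the 92.7% was not tested.

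**Figure D1:**
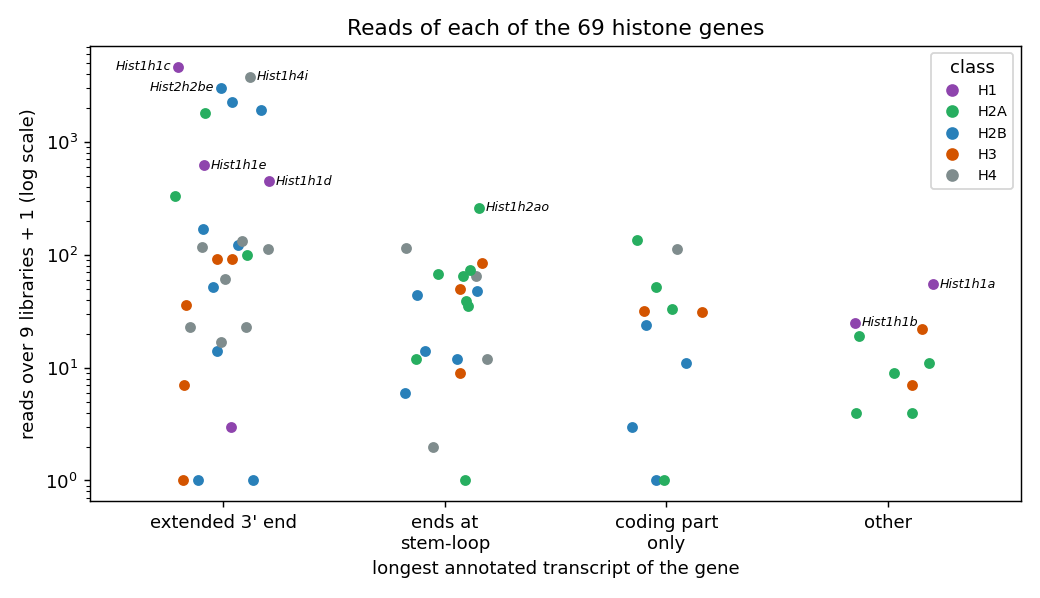
Reads over the 9 libraries plus 1 (log scale) for each of the 69 histone genes, by how the longest annotated transcript ends; each point is 1 gene, coloured by histone class. The 6 genes with most reads all have an extended transcript, while the highest gene with a transcript that ends at the stem-loop, Hist1h2ao, has 260.

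H1 genes with sequence of their own lay at both ends of the range of counts. Of the 50-base words of their transcript, 91.5% in Hist1h1c, 97.7% in Hist1h1d and 100% in Hist1h1a and Hist1h1b were found in no other transcript. Hist1h1c had 4645 reads and Hist1h1d 446, but Hist1h1a had 54 and Hist1h1b 24, and Hist1h1t, the testis H1, had 2. For 36 members under 50% of words were their own, and these held 1471 reads. The sources used here do not say how reads that match several copies were counted, and those members are read as sums.

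Small RNAs without a poly(A) tail were also counted. Per the labels the libraries were total RNA with ribosomal depletion. Of 18 identifiers of such RNAs (the RNA parts of telomerase and of the RNase P and MRP enzymes, Y RNAs, signal recognition particle RNAs and others), 7 were at 0 in every library and 15 stayed under 1 CPM in every library. Rn7sk, the best measured, averaged 3.24 CPM over the 9 libraries. How reads that match several copies were counted is not known for these RNAs either. The parts of library preparation and of such reads in their low counts, and in those of stem-loop-ended histone genes, were not tested.

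The summed level of the 69 members was 40.8, 32.4 and 37.9 CPM in MitoPositive libraries B, C and D, 43.4, 35.7 and 42.8 CPM in MitoNegative libraries, and 30.6, 29.4 and 34.3 CPM in monoculture libraries. The MitoPositive range overlapped both others, each MitoNegative library was above each monoculture library, and the log2 ratio of the group means was -0.13 for MitoPositive over MitoNegative, 0.24 for MitoPositive over monoculture and 0.37 for MitoNegative over monoculture. Within each letter, however, the sum was lower in the MitoPositive than in the MitoNegative library, as were the H1 and H4 sums. Behind these sums the make-up differed between co-cultured and monoculture cells. H1 made up 30.8% of the histone level in MitoPositive cells, 32.2% in MitoNegative cells and 14% in monoculture cells, and H2B 32.5%, 30.2% and 48.3% in the same order. In these bulk samples fewer cells of a type and less RNA per cell cannot be told apart.

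**Figure D2:**
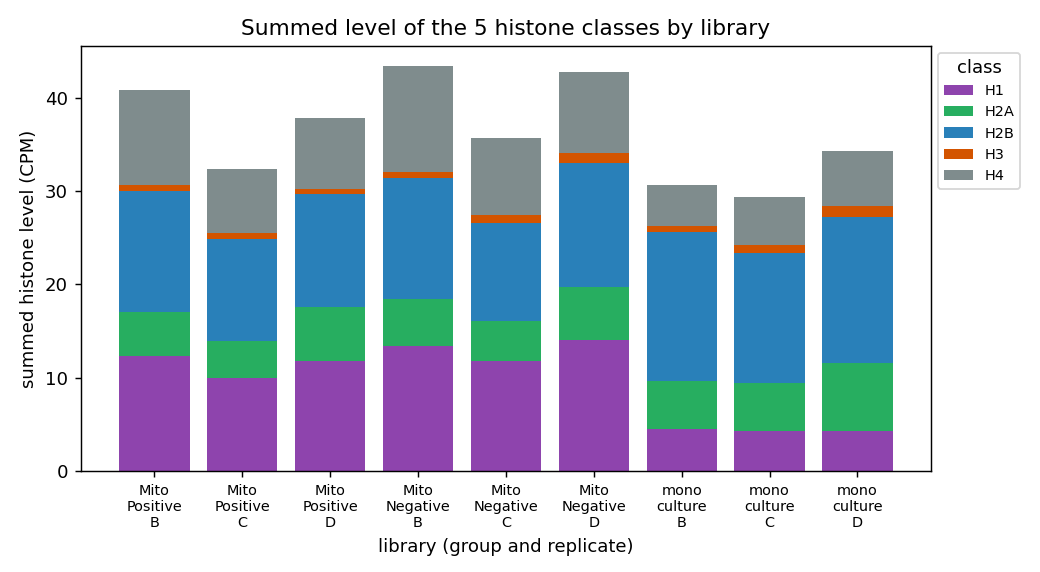
Summed histone level in CPM (vertical axis) in each of the 9 libraries, MitoPositive, MitoNegative and monoculture from left to right, stacked by histone class. The H1 part reaches 10.0 to 12.4 CPM in MitoPositive, 11.8 to 14.1 CPM in MitoNegative and 4.31 to 4.56 CPM in monoculture libraries, while the H3 part stays at 1.14 CPM or less in all.

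By class, H1 summed to 11.4 ± 1.24 CPM in MitoPositive, 13.1 ± 1.18 CPM in MitoNegative and 4.4 ± 0.136 CPM in monoculture cells (SD, n = 3 each). H4 summed to 8.25 ± 1.73, 9.38 ± 1.67 and 5.14 ± 0.727 CPM in the same 3 groups. H2B summed to 12 ± 1.04 CPM in MitoPositive and 12.2 ± 1.54 CPM in MitoNegative cells, against 15.2 ± 1.06 CPM in monoculture cells. H2A gave 4.76 ± 0.914, 5.02 ± 0.644 and 5.82 ± 1.27 CPM, and H3 only 0.563 ± 0.0285, 0.885 ± 0.214 and 0.866 ± 0.256 CPM, each for the MitoPositive, the MitoNegative and the monoculture group. The H1 and H4 ranges of the co-cultured libraries lay above those of the monoculture libraries, and the H2B range lay below. The H2A ranges overlapped, and for H3, on 451 reads in all, each MitoPositive library was below each other library. A single gene held most reads of H1 (Hist1h1c, 4645 of 5790), H4 (Hist1h4i, 3760 of 4539) and H2A (Hist3h2a, 1817 of 3054). These class sums therefore mostly follow that gene. Sums over members are given as a description with no test.

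Between MitoPositive and MitoNegative cells no member passed the edgeR quasi-likelihood test at an adjusted p under 0.05, while 0.165% of all 15711 genes tested did. An unadjusted p under 0.05 was reached by 2 members of 24, and limma voom and the fit with the replicate letter as a block called 0. DESeq2 called 0 of the 7 members to which it gave an adjusted p. The 4 members with the smallest p were all lower in MitoPositive cells and none passed. Hist1h4h had 9, 8 and 11 reads in MitoPositive libraries B, C and D and 25, 15 and 24 in MitoNegative libraries, a log2 fold change of -1.16 ± 0.372 (SE; adjusted p = 0.252). Hist1h4c had 13, 5 and 12 reads against 20, 21 and 22, a log2 fold change of -1.06 ± 0.355 (adjusted p = 0.275). For both H4 genes each MitoPositive library was below each MitoNegative library. Hist1h3e, an H3 gene, was at -0.84 ± 0.437 (adjusted p = 0.549), and Hist1h1c at -0.22 ± 0.12 (adjusted p = 0.587). The median log2 fold change of the 24 members was -0.28, beside -0.00038 over all genes tested. Without their MitoNegative libraries Hist1h4c, Hist1h4h, Hist1h3e, Hist1h3c, Hist1h2ac and Hist1h2ap reached the filter's minimum count in too few libraries. The median is therefore drawn partly from members admitted through the group where they were high.

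Against monoculture, 5 of the 24 tested members were higher in MitoPositive cells, 20.8% beside 22.3% of all genes tested, and 3 were lower, 12.5% beside 19.9%. In MitoNegative cells 8 members were higher than in monoculture, 33.3% beside 20.6% of all genes tested, and 2 were lower, 8.33% beside 18.3%. Hist1h1c, Hist1h1d, Hist1h1e, Hist1h2bc and Hist1h4i were higher and Hist2h2be and Hist3h2ba lower in both comparisons, which share the monoculture libraries. The median log2 fold change of the tested members was 0.18 in MitoPositive and 0.71 in MitoNegative cells against monoculture, beside 0.0034 and 0.0093 over all genes tested. Hist1h4c, Hist1h4h, Hist1h2ac, Hist1h3e, Hist1h3c and Hist1h2ap met the filter only with their MitoNegative libraries. The share of 33.3% and the median of 0.71 in MitoNegative cells thus rest partly on members admitted through that group. Hist1h3c, Hist1h2ap, Hist1h2ag and Hist1h3e met it only with their monoculture libraries. The 12.5% lower in MitoPositive cells includes Hist1h3c, admitted through the group where it was high. Both medians against monoculture rest partly on such members. The share higher in MitoPositive cells was near that of all genes, and the 45 members with too few reads were not tested.

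**Figure D3:**
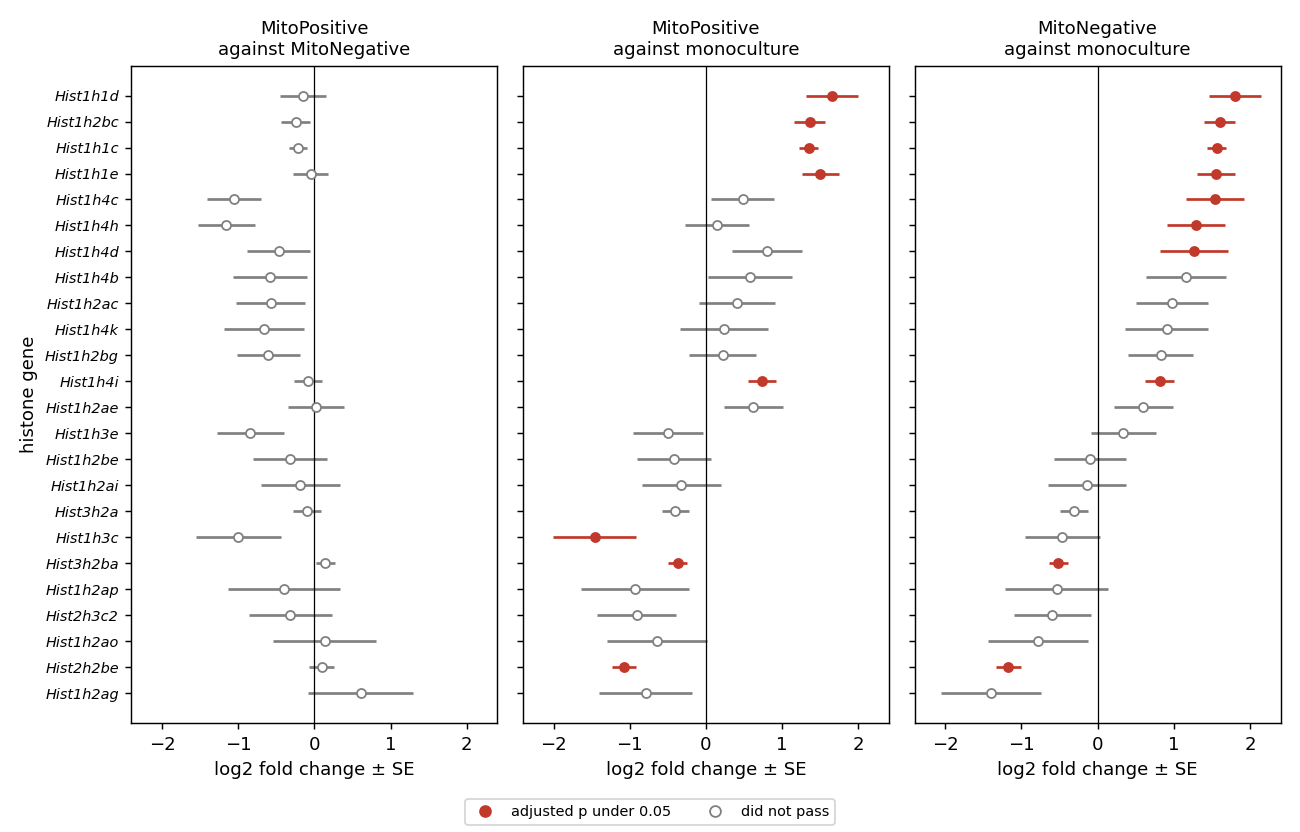
Log2 fold change ± SE (horizontal axis) of the 24 tested histone genes (rows) in the 3 comparisons (panels); filled red points passed at an adjusted p under 0.05 and open points did not. No point is filled for MitoPositive against MitoNegative, while the 3 H1 genes and Hist1h2bc lie between 1.35 and 1.80 against monoculture in both co-cultured groups.

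The 3 tested H1 genes moved together. Hist1h1c, the H1 gene with most reads, had 9.63, 7.94 and 9.62 CPM in MitoPositive libraries B, C and D, 10.4, 9.52 and 11.6 CPM in MitoNegative libraries, and 3.92, 3.36 and 3.39 CPM in monoculture libraries. Each co-cultured library stood above each monoculture library, 2.55-fold on average in MitoPositive cells (log2 fold change 1.35 ± 0.125, adjusted p = 7.32e-06) and 2.96-fold in MitoNegative cells (1.57 ± 0.125, adjusted p = 4.04e-06). Hist1h1e, also a somatic H1 gene, had 1.36, 1.34 and 1.20 CPM in MitoPositive, 1.58, 1.17 and 1.29 CPM in MitoNegative, and 0.311, 0.565 and 0.497 CPM in monoculture libraries. It was 2.83-fold higher in MitoPositive cells (adjusted p = 0.000463) and 2.93-fold higher in MitoNegative cells (adjusted p = 0.000455) than in monoculture, with no overlap. Its 3′ part overlaps Hist1h2be, which is on the same strand and had 121 reads beside its 619. Hist1h1d, another somatic H1 gene, was at 1.32, 0.523 and 0.851 CPM in MitoPositive, 1.23, 0.902 and 0.874 CPM in MitoNegative, and 0.279, 0.283 and 0.298 CPM in monoculture libraries. Its folds were 3.15 in MitoPositive cells (adjusted p = 0.00206) and 3.49 in MitoNegative cells (adjusted p = 0.00142), again with no overlap. The annotated exon of Hist1h1d spans 7425 bases, 4884 of them past the stem-loop. The counts do not tell reads of its H1 coding part from reads elsewhere in that exon. Hist1h1a and Hist1h1b did not pass the filter: Hist1h1a had 3, 8 and 8 reads in the MitoPositive libraries, 4, 8 and 13 in the MitoNegative ones and 1, 3 and 6 in those of monoculture, and Hist1h1b between 1 and 4 in each library.

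The promoters of the H1 genes share a sequence that the rule did not use. The letters AAACACA, known as the H1 box, occurred on either strand in 5 of 6 H1 promoters (250 bases before to 50 after the RefSeq start, GRCm38.p6), and in 7.18% of all 32851 RefSeq windows. They occurred in 2 of 17 H2A, 2 of 16 H2B, 0 of 10 H3 and 0 of 12 H4 windows. The 150 bases before the start are printed for the 3 genes that rose and for Hist1h1b and Hist1h1a, which had few reads, with the H1 box, the CCAAT box and the TATAAA element on either strand in capitals, also where the stretch begins inside one. The RefSeq start of Hist1h1d lies inside the gene as the deposited annotation gives it.
Hist1h1c, chr13:23738657-23738806, plus strand: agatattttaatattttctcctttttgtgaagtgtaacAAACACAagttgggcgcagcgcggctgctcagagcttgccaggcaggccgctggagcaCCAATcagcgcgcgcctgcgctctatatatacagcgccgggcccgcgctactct
Hist1h1d, chr13:23554882-23555031, plus strand: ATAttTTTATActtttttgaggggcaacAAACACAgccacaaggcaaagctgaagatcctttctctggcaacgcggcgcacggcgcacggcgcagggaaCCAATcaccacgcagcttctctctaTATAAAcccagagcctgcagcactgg
Hist1h1e, chr13:23622559-23622708, minus strand: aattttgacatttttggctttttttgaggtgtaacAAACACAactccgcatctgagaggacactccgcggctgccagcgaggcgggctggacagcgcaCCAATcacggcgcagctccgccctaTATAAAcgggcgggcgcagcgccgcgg
Hist1h1b, chr13:21780626-21780775, minus strand: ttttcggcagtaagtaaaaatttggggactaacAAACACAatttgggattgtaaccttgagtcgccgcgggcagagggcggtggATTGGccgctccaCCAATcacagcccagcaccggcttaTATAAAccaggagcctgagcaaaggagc
Hist1h1a, chr13:23763518-23763667, plus strand: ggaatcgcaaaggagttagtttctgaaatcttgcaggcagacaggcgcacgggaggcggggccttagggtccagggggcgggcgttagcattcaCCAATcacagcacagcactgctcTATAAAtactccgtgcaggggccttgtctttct

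The box began 112, 122 and 115 bases before the start in Hist1h1c, Hist1h1d and Hist1h1e, and 117 bases before it in Hist1h1b, so Hist1h1b, with 24 reads, had the same box at a like distance. Over the whole family 61 of the 69 members were matched to a RefSeq promoter. TATAAA was in 35 of the 61 (57.4%, beside 13.6% of all windows), CCAAT in 52 (85.2%, beside 37.4%), and both in 29 (47.5%, beside 5.31%), on either strand. A match is a description of these letters and no evidence of binding.

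Of 5 tested H2B genes, Hist1h2bc was higher and Hist2h2be and Hist3h2ba were lower in both co-cultured groups than in monoculture. Hist1h2bg (adjusted p = 0.719 in MitoPositive and 0.148 in MitoNegative cells, by edgeR) and Hist1h2be (0.517 and 0.886) did not pass. Hist1h2bc, an H2B gene of the large chromosome 13 cluster with an annotated transcript of more than 1 exon and 69.4% of words of its own, had 4.05, 3.68 and 3.51 CPM in MitoPositive, 4.48, 3.82 and 5.01 CPM in MitoNegative, and 1.15, 1.30 and 1.94 CPM in monoculture libraries. It was 2.56-fold higher in MitoPositive cells (log2 fold change 1.36 ± 0.2, adjusted p = 0.000216) and 3.03-fold higher in MitoNegative cells (1.60 ± 0.199, adjusted p = 8.89e-05) than in monoculture, with no overlap. The other words of Hist1h2bc are shared with H2B copies and with many genes outside the family, such as Neat1, Runx3 and Lcp2. How reads of such words were counted is not known, which limits its level and the ratio given below. Hist2h2be, an H2B gene of chromosome 3, had 4.24, 3.59 and 3.84 CPM in MitoPositive, 4.02, 2.84 and 4.08 CPM in MitoNegative, and 9.32, 7.25 and 8.01 CPM in monoculture libraries. Each co-cultured library was below each monoculture library, with log2 fold changes of -1.07 ± 0.161 in MitoPositive cells (adjusted p = 0.000245) and -1.17 ± 0.161 in MitoNegative cells (adjusted p = 0.000175). Hist2h2be was 31.5% to 32.8% of the H2B level in MitoPositive, 27% to 31.1% in MitoNegative and 51.2% to 58.5% in monoculture libraries. The level of Hist1h2bc over that of Hist2h2be was 0.953, 1.03 and 0.916 for the MitoPositive libraries, 1.11, 1.35 and 1.23 for the MitoNegative ones, and 0.123, 0.179 and 0.242 for those of monoculture.

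Hist3h2ba, an H2B gene of chromosome 11, had 3.85, 3.34 and 3.63 CPM in MitoPositive, 3.51, 3.15 and 3.14 CPM in MitoNegative, and 4.70, 4.37 and 4.93 CPM in monoculture libraries. It was lower in MitoNegative cells by edgeR (-0.52 ± 0.128, adjusted p = 0.00748) and in MitoPositive cells (-0.37 ± 0.127, adjusted p = 0.0342). The MitoPositive call was lost in 7 of 9 fits that left out 1 library, with adjusted p up to 0.125, although all 3 MitoPositive libraries were below all 3 monoculture libraries. Its neighbour Hist3h2a, an H2A gene at chr11:58954685-58956830 that overlaps Trim17 on the same strand, averaged 2.74 ± 0.478, 2.93 ± 0.366 and 3.62 ± 0.607 CPM in MitoPositive, MitoNegative and monoculture cells (SD, n = 3 each) and did not pass (adjusted p = 0.0998 in MitoPositive and 0.213 in MitoNegative against monoculture).

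**Figure D4:**
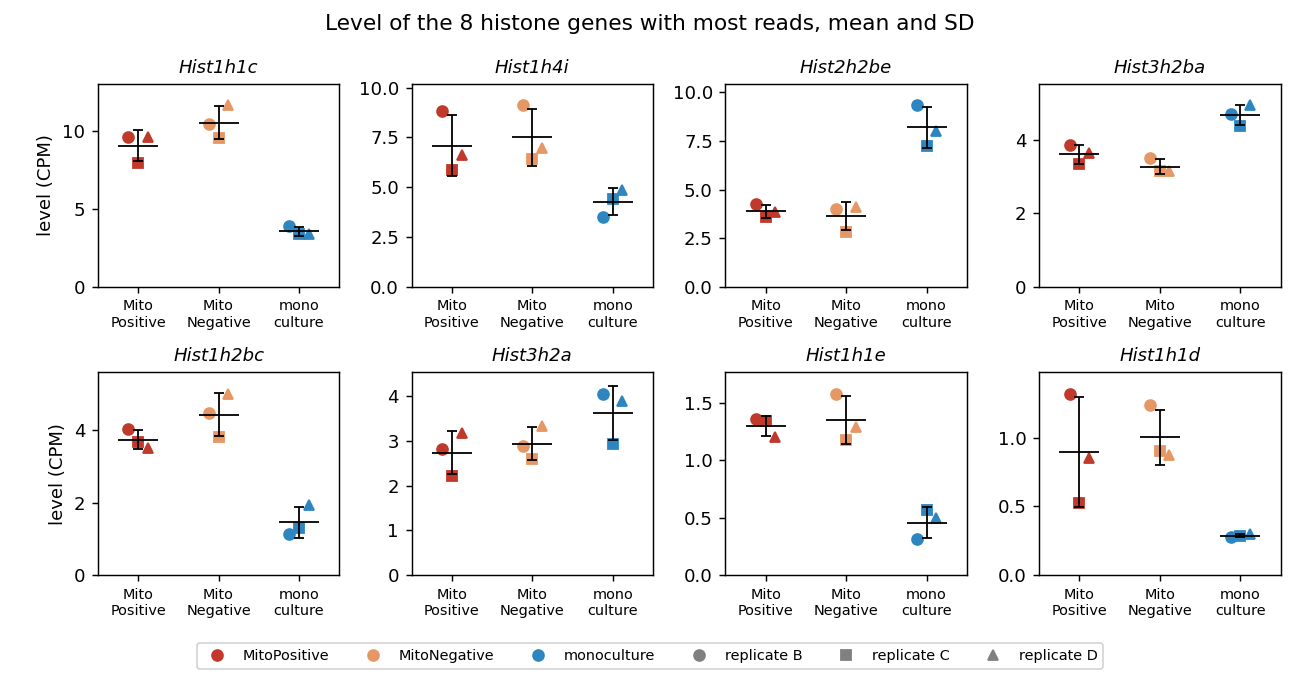
Level in CPM (vertical axes, from 0) of the 8 histone genes with most reads in MitoPositive, MitoNegative and monoculture libraries; points are libraries, with the replicate letter as the shape, and the bar and whiskers are mean and SD (n = 3 each). Hist1h1c, Hist1h2bc, Hist1h1e and Hist1h1d show no overlap with monoculture and lie above it, while Hist2h2be and Hist3h2ba lie below it.

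The H4 genes were led by Hist1h4i. It had 8.80, 5.84 and 6.61 CPM in MitoPositive, 9.10, 6.43 and 6.97 CPM in MitoNegative, and 3.52, 4.41 and 4.87 CPM in monoculture libraries. Each co-cultured library was above each monoculture library, 1.66-fold in MitoPositive cells (adjusted p = 0.00774) and 1.76-fold in MitoNegative cells (adjusted p = 0.00487). In MitoNegative cells Hist1h4c (1.54 ± 0.379, adjusted p = 0.00719), Hist1h4h (1.30 ± 0.382, adjusted p = 0.0186) and Hist1h4d (1.27 ± 0.447, adjusted p = 0.0414) also passed against monoculture on the log2 scale. Of these, Hist1h4c and Hist1h4h met the low-count filter only with their MitoNegative libraries, where they were high. Hist1h4d lost its call in 6 of 9 fits without 1 library and Hist1h4h in 3, with adjusted p up to 0.131 and 0.0696. DESeq2 called neither (adjusted p = 0.0728 for Hist1h4d and 0.055 for Hist1h4h), which left 6 members higher in MitoNegative cells by that tool, and the fit of only the 2 groups did not call Hist1h4d (adjusted p = 0.0581). Their values in MitoPositive cells against monoculture were 0.48 ± 0.411, 0.14 ± 0.419 and 0.80 ± 0.462 for Hist1h4c, Hist1h4h and Hist1h4d, and the difference between the co-cultured groups did not pass for any of them. The H4 genes are known to encode the same or nearly the same protein.

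The 12 H3 genes held 451 reads in all and the 20 H2A genes 3054, of which Hist3h2a had 1817. Hist1h3c, an H3 gene, had 7, 5 and 3 reads in the MitoPositive libraries, 8, 13 and 10 in the MitoNegative ones, and 6, 11 and 21 in those of monoculture, and was called lower in MitoPositive cells than in monoculture at the edge of the threshold (-1.46 ± 0.548, adjusted p = 0.0499). Scaled to CPM, each MitoPositive library was below each monoculture library. Hist1h3c met the low-count filter only with its monoculture libraries, where it was high, so nothing is drawn from this call. The call was lost in 8 of 9 fits without 1 library (adjusted p up to 0.245), and DESeq2 and limma voom did not make it. Hist1h2ae, an H2A gene, averaged 0.631 ± 0.175, 0.629 ± 0.248 and 0.414 ± 0.176 CPM in MitoPositive, MitoNegative and monoculture cells, with overlap. Hist1h2ao, whose words are 6.5% its own, had 17, 18 and 43 reads in MitoPositive libraries B, C and D, 18, 18 and 36 in the MitoNegative ones, and 8, 31 and 71 in those of monoculture. The highest library of each group was replicate D.

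Per kilobase of exon the order of the 6 members with most reads differed between groups. In MitoPositive cells Hist1h4i was at 9.75 CPM per kb, Hist3h2ba at 5.87, Hist1h1c at 5.81, Hist1h2bc at 3.24, Hist2h2be at 1.48 and Hist3h2a at 1.27. In MitoNegative cells Hist1h4i was at 10.3 CPM per kb, Hist1h1c at 6.75, Hist3h2ba at 5.32, Hist1h2bc at 3.84, Hist2h2be at 1.39 and Hist3h2a at 1.37. In monoculture cells Hist3h2ba came first at 7.61 CPM per kb, before Hist1h4i at 5.87, Hist2h2be at 3.13, Hist1h1c at 2.28, Hist3h2a at 1.69 and Hist1h2bc at 1.26.

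The members on chromosome 13 were also summed by stretch. The Hist1 genes lie there in 1 stretch of 24 members at chr13:21715763-22043676, another of 31 members at chr13:23531050-23934851, 1487 kb further on, and the single Hist1h2al far from both. The 31 members of the later stretch summed to 17.7 ± 1.83 CPM in MitoPositive, 21 ± 2.05 CPM in MitoNegative and 8.08 ± 0.834 CPM in monoculture cells, and without Hist1h1c to 8.65 ± 0.923, 10.5 ± 1.14 and 4.53 ± 1.06 CPM (SD, n = 3 each). The 24 members of the earlier stretch summed to 8.63 ± 1.51, 9.16 ± 1.45 and 6.29 ± 1.8 CPM, and without Hist1h4i to 1.54 ± 0.381, 1.66 ± 0.366 and 2.02 ± 1.13 CPM. Of the 6 tested members of the earlier stretch only Hist1h4i was called in any comparison. Of the 14 tested in the later stretch 8 were called in any comparison. Hist1h1c, Hist1h1d, Hist1h1e and Hist1h2bc were called higher in both co-cultured groups than in monoculture. Hist1h4c, Hist1h4d and Hist1h4h were called higher in MitoNegative cells only, and Hist1h3c lower in MitoPositive cells only. Hist1h4c, Hist1h4h and Hist1h3c met the filter only with a group where they were high. The shares that follow are each for a single comparison and direction, so the 8 cannot be read against them. Over all genes tested, 22.3% were higher and 19.9% lower in MitoPositive cells than in monoculture, and 20.6% and 18.3% in MitoNegative cells. Without the 8 called members the later stretch summed to 2.13 ± 0.404 CPM in MitoPositive, 2.59 ± 0.361 CPM in MitoNegative and 1.75 ± 0.453 CPM in monoculture cells. The MitoPositive and monoculture libraries overlapped, and the MitoNegative ones, from 2.18 CPM up, lay just above the highest monoculture library at 2.15 CPM. Members were taken out here for their calls between these same groups, so a smaller difference among the rest was set in advance. The same holds for the earlier stretch without Hist1h4i, and nothing is drawn from either sum.

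The 40 members without an extended transcript were also summed. For 31 of them under 50% of words were their own, and the other 9 held 276 reads. The 40 genes had 157, 116 and 214 reads in MitoPositive libraries B, C and D, 183, 168 and 219 in MitoNegative libraries, and 87, 156 and 266 in monoculture libraries. Their sums were 2.41 ± 0.503 CPM in MitoPositive, 2.79 ± 0.424 CPM in MitoNegative and 2.81 ± 1.5 CPM in monoculture cells (SD, n = 3 each). The groups overlapped, and replicate D was the highest in each. The 29 members with an extended transcript averaged 34.6 ± 4.27, 37.8 ± 3.97 and 28.6 ± 1.61 CPM, and there replicate B was the highest in both co-cultured groups.

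Genes of cell division were set beside these sums. The 24 mitosis genes summed to 179.8, 239 and 508 CPM in MitoPositive libraries B, C and D, 192, 298 and 476 CPM in MitoNegative libraries, and 419.6, 774 and 938 CPM in monoculture libraries, with replicate D again the highest in each group. No mitosis gene passed the edgeR test in any comparison. Against monoculture their median log2 fold change was -1.40 in MitoPositive and -1.32 in MitoNegative cells, with 8 genes and 1 gene at an unadjusted p under 0.05, 8 and 2 called by DESeq2 and 18 and 10 by limma voom. With the replicate letter as a block all 24 passed in both comparisons. Kif23, a motor protein of the midbody, had 2.56, 4.02 and 10.5 CPM in MitoPositive, 3.63, 5.67 and 10.4 CPM in MitoNegative, and 12.6, 19.8 and 23.9 CPM in monoculture libraries B, C and D. The mitosis sum was lower in each co-cultured library than in the monoculture library of the same letter, while the 40 short-ended histone genes summed higher in co-culture for letter B and lower for letters C and D. The part of cell division in the histone levels was not tested.

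**Figure D5:**
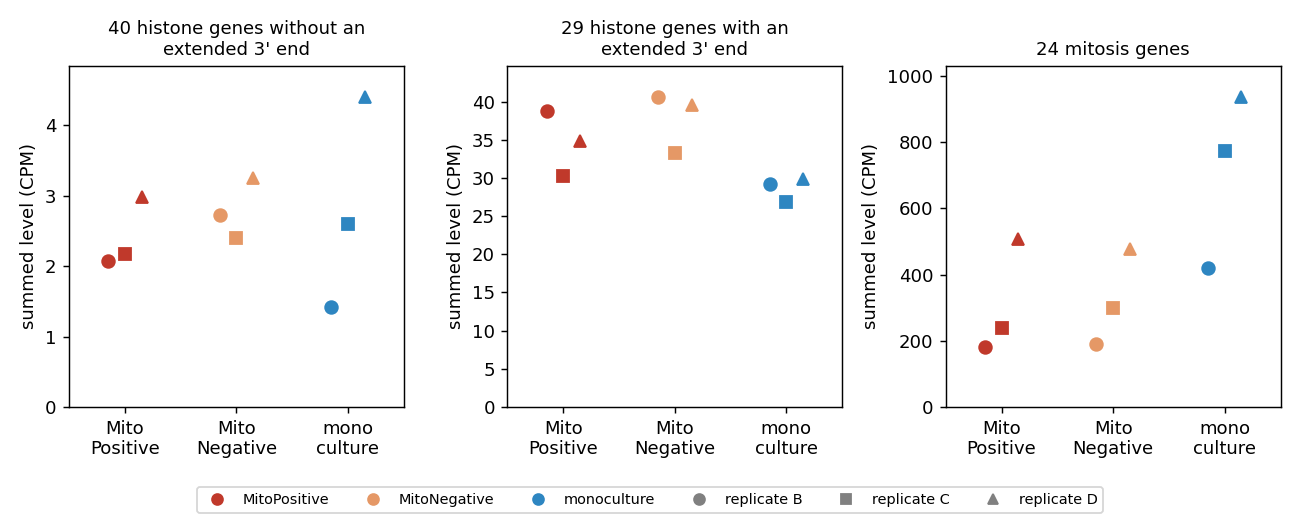
Summed level in CPM (vertical axes, from 0) of the 40 histone genes without an extended transcript, the 29 with one, and 24 mitosis genes; points are libraries by group, with the replicate letter as the shape. Replicate D is highest in each group in the left and right panels, and the monoculture libraries span 1.43 to 4.4 CPM in the left one.

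Of 41 DNA replication genes, 1 was higher and 13 lower in MitoPositive cells than in monoculture, and 1 higher and 17 lower in MitoNegative cells, with medians of -0.33 and -0.46 on the log2 scale. Among all genes tested 22.3% were higher and 19.9% lower in MitoPositive cells, and 20.6% and 18.3% in MitoNegative cells. With the block 24 of the 41 passed in MitoPositive and 30 in MitoNegative cells against monoculture. Rpa1, a subunit of the protein that coats single-stranded DNA, averaged 128 ± 2.1 CPM in MitoPositive, 128 ± 1.78 CPM in MitoNegative and 216 ± 22.8 CPM in monoculture cells and was lower in both (adjusted p = 8.81e-06 and 1.18e-05). Mcm6, of the replicative helicase, averaged 124 ± 3.48, 109 ± 3.65 and 163 ± 13 CPM in the same order and was also lower in both (adjusted p = 0.000499 and 3.81e-05).

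Of 22 tested genes for histone transcription and 3′ processing, 1 was higher and 9 lower in MitoPositive cells than in monoculture, and 1 higher and 8 lower in MitoNegative cells, with medians of -0.15 and -0.13. The shares over all genes were 22.3% higher and 19.9% lower in MitoPositive and 20.6% and 18.3% in MitoNegative cells. With the block 12 and 11 of the 22 passed, and with DESeq2 11 in each. Slbp averaged 51.9 ± 2.86 CPM in MitoPositive, 47.9 ± 3.55 CPM in MitoNegative and 65.3 ± 5.34 CPM in monoculture cells, lower in both (-0.33 ± 0.0759, adjusted p = 0.00425, and -0.45 ± 0.076, adjusted p = 0.000757). Npat, the coactivator of histone genes in S phase, averaged 44.0 ± 0.309, 46.2 ± 0.789 and 47.2 ± 4.5 CPM, and Casp8ap2, a partner in the histone locus body, 66.6 ± 2.42, 64.3 ± 0.5 and 64.4 ± 6.47 CPM, in MitoPositive, MitoNegative and monoculture cells. Lsm10, Lsm11 and the exonuclease Eri1, which trims the stem-loop end, did not pass either in any comparison. The higher gene was Ybx3, a cold shock domain protein, at 358 ± 22, 315 ± 22.4 and 167 ± 10.8 CPM in the same order (adjusted p = 7.95e-07 in MitoPositive and 5.07e-06 in MitoNegative cells against monoculture). Among the lower ones were Ncbp2, of the cap-binding complex, and Cpsf3, the nuclease that cuts histone and other pre-mRNA, at 67.9 ± 0.126, 62.2 ± 1.96 and 81.5 ± 4.32 CPM.

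Of 11 histone genes that are also expressed outside S phase, 3 were higher and 6 lower in MitoPositive cells than in monoculture, and 1 higher and 5 lower in MitoNegative cells, with medians of -0.46 and -0.33, beside the 22.3% higher and 19.9% lower and the 20.6% higher and 18.3% lower among all genes. H3f3a, which encodes an H3 variant deposited outside replication, averaged 281 ± 6.17 CPM in MitoPositive, 292 ± 12.7 CPM in MitoNegative and 406 ± 30.9 CPM in monoculture cells (adjusted p = 7.71e-05 and 0.000208), whereas H3f3b, another gene for the same protein, averaged 725 ± 86.7, 686 ± 67.9 and 649 ± 22.1 CPM and did not pass. H2afz, H2afv, H2afx and H2afy, variants of H2A, were lower in both co-cultured groups. Of the other H2A variants, H2afy2, which stayed under 1 CPM, was higher in both (adjusted p = 0.00073 and 0.00279), and H2afj was higher in MitoPositive cells (adjusted p = 0.0203) and did not pass in MitoNegative cells (adjusted p = 0.74), all by edgeR against monoculture. H1f0, the linker histone of quiescent and differentiated cells, averaged 73.2 ± 11.6, 56.6 ± 10.5 and 43.4 ± 5.86 CPM, was higher in MitoPositive cells (0.76 ± 0.164, adjusted p = 0.00544) and did not pass in MitoNegative cells (0.38 ± 0.163, adjusted p = 0.0964), both against monoculture.

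Of 24 histone chaperones and importers, 3 were higher and 11 lower in MitoPositive cells than in monoculture, and 4 higher and 10 lower in MitoNegative cells, with medians of -0.24 and -0.22. Beside these stand 22.3% higher and 19.9% lower, and 20.6% higher and 18.3% lower, among all genes in the same 2 comparisons. Ssrp1, a subunit of the FACT chaperone, averaged 386 ± 26.6, 340 ± 18.8 and 257 ± 20.4 CPM in MitoPositive, MitoNegative and monoculture cells (adjusted p = 0.0001 and 0.00169). Ipo4, an importer of H3 and H4, was also higher, and Anp32e, which removes the variant H2A.Z, was lower, at 167 ± 4.09, 168 ± 6.88 and 260 ± 26.2 CPM. Between MitoPositive and MitoNegative cells 0 of the 122 tested genes of these 5 lists passed by edgeR, with 10 at an unadjusted p under 0.05, 1 called by DESeq2 and 0 by limma voom, and 3 with the block.

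Markers of other cells differed between co-culture and monoculture. Over all genes tested 22.3% were higher and 19.9% lower in MitoPositive cells than in monoculture, and 20.6% and 18.3% in MitoNegative cells. The CD8+ T-cell markers Cd8a, Cd8b1, Cd3e, Cd3g, Cd3d, Trac and Lck summed to 4421 CPM or more in every library, and of the 7 tested 5 were lower in MitoPositive and 6 in MitoNegative cells than in monoculture. The 9 stromal markers summed to 23.3, 26.6 and 10.1 CPM in MitoPositive libraries B, C and D, 26.8, 27.4 and 10.1 CPM in MitoNegative libraries, and 0.623, 0.964 and 1.03 CPM in monoculture libraries. Of them 6 of 7 tested were higher in both co-cultured groups, and Sparc, Col1a2, Col3a1, Postn, Dcn and Lum were at 0 in all monoculture libraries. The 5 B-cell markers summed to 17.2 to 28.6 CPM in MitoPositive, 20.2 to 31.9 CPM in MitoNegative and 55.0 to 79.9 CPM in monoculture libraries. Of the 5, 3 were lower in both co-cultured groups. The 5 myeloid markers summed to 8.36 CPM or less and the 3 natural killer markers to 4.05 CPM or less in every library, with 1 myeloid marker higher and 2 lower in MitoPositive and 1 higher and 1 lower in MitoNegative cells, and 2 natural killer markers lower in MitoPositive cells, all against monoculture. The part of these cells in the histone levels was not tested.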

How the data were processed

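RNA of 9 libraries was measured, and the deposited values used are raw read counts per gene. Per the labels' protocols, total RNA was ribosome-depleted and prepared with a KAPA HyperPrep kit. Per the submitters' processing notes, the tools included STAR 2.7 and featureCounts, with cutadapt, bcl2fastq and DESeq2, and the build was GRCm38. Annotation release, strandedness and the handling of reads with several matches are not given in the sources used here. Reads of overlapping genes therefore cannot be told apart, and 23 members overlap a gene on the other strand. The 99 spike-in rows, all at 0, were left out.

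The test used edgeR 4.0.16 under R 4.3.3: filterByExpr (minimum count 10, minimum total 15), TMM scaling, 1 robust quasi-likelihood fit of all 9 libraries by group with 6 residual degrees of freedom, and Benjamini-Hochberg adjustment over 15711 genes within each comparison, with a threshold of 0.05. A standard error is the log2 fold change over the root of the F statistic. CPM use TMM-scaled totals. DESeq2 1.42.0 and limma 3.58.1 were alternatives, beside other scales, filters and libraries left out. The code was tested on simulated data. Replicates of each group differed by more than counting noise.

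The members and gene lists were chosen with earlier results of these data known. Members were named by a rule: the 10 with the highest level, those that passed against monoculture with a mean log2 CPM of at least 1, the 4 with the smallest p between the sorted groups, the tested H1 genes, 6 named factors, and per list and comparison up to 4 genes with the smallest p. Hist1h3c, Hist1h4d, Hist1h2bg, Hist1h2be, H3f3b, H2afx and H2afz were named after their values were seen. Genes most like the summed level were not named, since such a likeness over all libraries may mostly follow co-culture against monoculture. Whether letters pair libraries was checked by the correlation of same-letter residuals, which was 0.402, 0.339 and 0.459 between MitoPositive and MitoNegative, 0.213, 0.153 and 0.111 between MitoNegative and monoculture, and 0.248, 0.0521 and 0.163 between MitoPositive and monoculture for letters B, C and D. All letters lay above a threshold of 0.1 in the first and second of these. The main tests nevertheless used group only, with no pairing, and their p-values are unpaired. The letter entered only in the block fit, an alternative that was run for every comparison.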

Additional observations from a re-analysis of the deposited data

How the results depend on the processing

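The directions and calls of Hist1h1c, Hist1h1d, Hist1h1e, Hist1h2bc, Hist1h4i and Hist2h2be against monoculture held under every alternative that gave them a value. The count of members lower in MitoPositive cells than in monoculture was 3, and 1 without a filter and with only the 2 groups compared, and 1 to 3 with 1 library left out. The count higher in MitoNegative cells than in monoculture was 8, 4 with a mean CPM of at least 1 (fewer members tested) and 6 to 8 with 1 library left out. The other counts were 4 or 5 higher in MitoPositive cells and 2 to 3 lower in MitoNegative cells against monoculture, and 0 between the sorted groups. The replicate block gave 5 higher and 3 lower, 8 higher and 2 lower, and 0 in the same comparisons; it called Hist3h2a lower in MitoPositive cells than in monoculture (adjusted p = 0.0212) and no longer Hist1h3c. Over all genes it moved the calls between the sorted groups to 367, against 26 without it. The log2 ratio of the summed level ranged over all alternatives from -0.22 to -0.046, 0.14 to 0.32 and 0.30 to 0.45 in the 3 comparisons in the order given above.

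With 1 library left out at a time, 12 log2 fold changes that had not passed changed sign in at least 1 fit. Between MitoPositive and MitoNegative cells their ranges over the 9 fits were -0.53 to 0.11 for Hist1h1d, -0.14 to 0.079 for Hist1h1e, -0.22 to 0.36 for Hist1h2ae, -0.35 to 0.56 for Hist1h2ao, -0.27 to 0.085 for Hist1h4i, -0.052 to 0.18 for Hist2h2be and -0.21 to 0.029 for Hist3h2a. Between MitoPositive and monoculture cells they were -1.13 to 0.27 for Hist1h2ao and -0.0041 to 0.37 for Hist1h4h, and between MitoNegative and monoculture cells -1.26 to 0.14 for Hist1h2ao, -0.80 to 0.12 for Hist1h3c and -0.011 to 0.51 for Hist1h3e. The cause was not tested. Members with under 100 reads over the 9 libraries are limited by depth.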
